A study of Homo sapiens with 12 samples.

Results

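The genes described here sense breaks in DNA, signal them to the cell cycle or mend them, and they were followed by their RNA in MV4-11 leukemia cells given Mitoxantrone, Gilteritinib, the 2 drugs together or DMSO. The set holds 43 genes, picked by name from known pathways, though with earlier results of these data known. All 43 were found among the 43876 gene identifiers of the expression table. They fall into 6 roles, with 11 genes of homologous recombination, 12 of the Fanconi pathway, 6 of damage signaling and checkpoint control, 6 of end resection and its helicases, 6 of end joining and 2 that belong to other repair routes. MDC1 was the 1 gene that missed the low-value filter, so 42 of the 18574 genes tested are members.

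A DNA break across both strands can be mended along several routes. Kinases such as ATM and ATR sense the damage and hold the cell cycle through CHEK1 and CHEK2. In end joining, the Ku proteins XRCC5 and XRCC6 and the kinase PRKDC hold the ends while XRCC4 and LIG4 seal them. In homologous recombination, the ends are first cut back by nucleases, and BRCA1, BRCA2 and PALB2 then help to copy the lost sequence from the sister chromatid, so this route works mainly in cells that are replicating or have replicated their DNA. The Fanconi proteins undo links between the strands and hand the resulting breaks to recombination. Mitoxantrone is a topoisomerase II poison that leaves breaks of this kind, and gilteritinib inhibits the receptor kinase FLT3.

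MV4-11 is an established human line of acute myeloid leukemia cells, described in the study as FLT3-ITD, that is, with an internal tandem duplication in FLT3, which the control cells carry too. Cells were held for 24 h with DMSO, with Mitoxantrone at 20 nM, with Gilteritinib at 25 nM, or with the Combination of Mitoxantrone at 20 nM and Gilteritinib at 20 nM, and each group has 3 libraries numbered 1 to 3. The group labelled Mitoxantrone is called mitoxantrone-liposome in the study's text. All libraries come from this 1 line, and the sources used here do not say whether the 3 libraries came from separate cultures, so the p-values here measure only the spread between these libraries. In bulk RNA, fewer cells that express a gene and less RNA per cell cannot be told apart.

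Each library held about 31725023 to 41330651 fragments, a depth read back from the steps between low FPKM values, where FPKM is fragments scaled to transcript length and to the library total. Of 9 myeloid markers, 8 were well expressed, among them LYZ at 490 to 1333 FPKM and FLT3 at 132 to 171 FPKM, and MPO was low at 1.55 to 2.66 FPKM. Of 11 markers of other cell types, 8 stayed under 0.1 FPKM in every library, while PECAM1, which myeloid cells also express, reached 25.1 FPKM and HBB 2.85 FPKM. The summed FPKM of these other markers ranged from 13.7 to 29.1 in Mitoxantrone and from 11.6 to 17.6 in DMSO, and their part in the results was not tested. Replicate 1 stood apart from replicates 2 and 3 in all 4 groups, with 39.6% of all genes differing by it (limma, Benjamini-Hochberg adjusted p under 0.05), and no label explains the numbers.

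The repair genes spanned a wide range of RNA levels. The most abundant were the 3 genes of the DNA-dependent protein kinase, with a mean over the 12 libraries of 205 FPKM for PRKDC, 175 FPKM for XRCC6 and 159 FPKM for XRCC5. USP1, the enzyme that takes ubiquitin off the Fanconi proteins FANCD2 and FANCI, followed at 49.6 FPKM, TOPBP1, an activator of ATR, at 41.2 FPKM and FANCI at 40.5 FPKM. The ranges of PRKDC and XRCC6 overlapped only between 179 and 189 FPKM, whereas those of USP1, TOPBP1 and FANCI overlapped broadly. At the low end were FANCF at 3.36 FPKM, RAD50 at 3.43 FPKM and TP53BP1 at 4.13 FPKM. The other genes that passed the filter had means from 5.47 FPKM for LIG4, the ligase of end joining, to 40.05 FPKM for NBN, a part of the complex that first binds broken ends.

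Some of these levels cannot be taken at face value. MDC1, an adaptor that gathers repair factors at breaks, was listed at 0.023 to 0.093 FPKM, which is about 6 to 25 fragments, and its chromosomal neighbour TUBB, a tubulin gene that dividing cells use heavily, was listed at 0.065 to 0.125 FPKM. RAD50, the partner of NBN, shares 79.7% of its exon length with AC116366.3, a gene model on the same strand. AC116366.3 itself was listed at no more than 0.003 FPKM, and how fragments in the shared part were assigned is not given. XRCC3 shares 76.7% of its exon length with KLC1 on the opposite strand, TP53BP1 shares 28.7% with TUBGCP4, RAD54L 25.1% with LRRC41 and FANCA 23.6% with ZNF276. Smaller overlaps of this kind include FANCL with VRK2 (18.7%), ATR with AC109992.1 (16.4%), MSH6 with FBXO11 (16.2%) and FANCF with GAS2 (11.3%). The sources used here do not say that the counting used strand. Levels and differences of these genes, RAD50 among them, are uncertain for these reasons.

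With Mitoxantrone alone, most of the repair genes had modestly lower levels than in DMSO. At 24 h, 38 of the 42 members had a lower mean log2(FPKM + 1) in Mitoxantrone than in DMSO, with a median difference of -0.19 beside 0.03 over all genes tested, of which 43% were lower. Most members had a mean of at least 5 FPKM. Over the 9382 genes at that level the median was -0.0021, and 50.8% were lower. All 3 Mitoxantrone libraries lay below all 3 DMSO libraries for 20 of the 42 members, and 5.9% of all genes tested did so. No member lay wholly above DMSO, where 1426 of the 18574 genes tested did. By replicate number the members' median difference was -0.25, -0.15 and -0.23 for replicates 1, 2 and 3, while the median of all genes was 0.04, 0.06 and -0.03, and 31 of the 42 members were lower at every replicate number.

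None of these differences passed the test. With limma over all 12 libraries and Benjamini-Hochberg adjustment, 0 of the 42 members, and 0% of all genes tested, had an adjusted p under 0.05 in Mitoxantrone against DMSO. At an unadjusted p under 0.05, 16 members were lower and 0 higher, against 2.94% of all genes that were lower by that measure. Of the 9382 genes with a mean of at least 5 FPKM, 483 were lower by it. With the replicate number as a block, the unadjusted count was 26 members, all lower, against 6.46% of all genes, and still 0 members passed after adjustment. In replicates 2 and 3 alone, which leaves 2 libraries a group, 14 members passed, all lower, against 3.32% of all genes. They were BRCA1, BRCA2, BARD1, XRCC2, FANCI, USP1, TOPBP1, CHEK1, ATR, RBBP8, EXO1, PRKDC, MSH6 and PARP1. That subset was set with it known from these data that replicate 1 stood apart. With the block in those 8 libraries 9 members passed, against 2.29%.

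**Figure D1:**
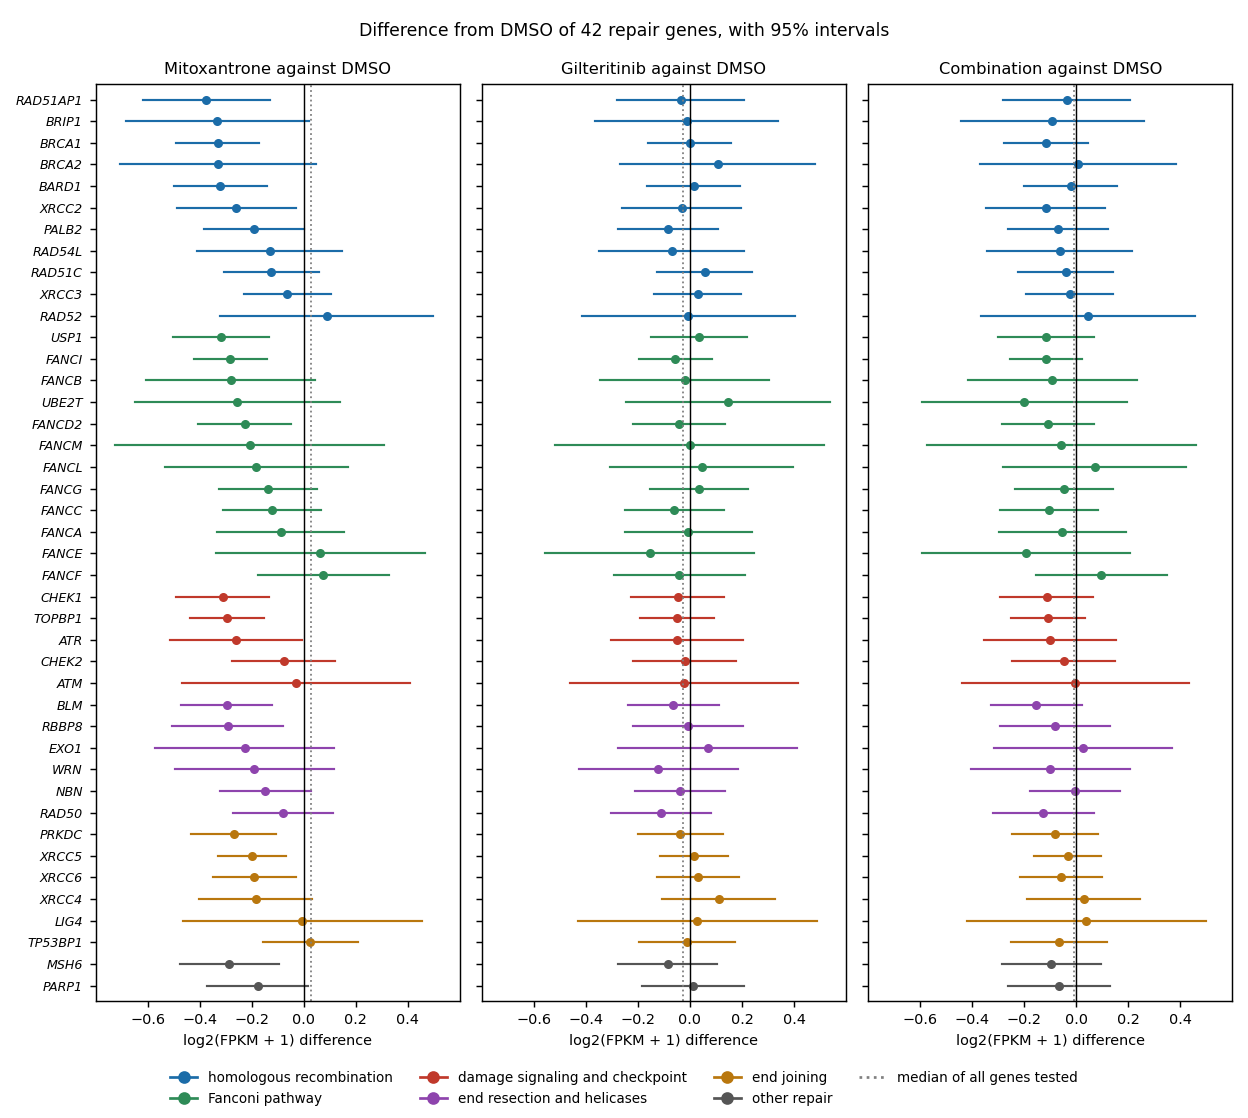
Difference in log2(FPKM + 1) from DMSO of the 42 tested repair genes in Mitoxantrone, Gilteritinib and the Combination, with 3 libraries per group. Points are limma estimates, lines their 95% intervals, colours the roles, and the dotted line the median of all 18574 genes tested. In Mitoxantrone 38 points lie left of 0, with a median of -0.19, whereas the medians are -0.02 in Gilteritinib and -0.07 in the Combination.

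The genes of homologous recombination had a median difference of -0.26 in Mitoxantrone, with 10 of 11 lower, 6 wholly below DMSO and 4 at an unadjusted p under 0.05, or 7 with the replicate block. BRCA1, the E3 ligase that directs breaks into recombination (ENSG00000012048, chr17:43044295-43170245), stood at 22.1, 24.3 and 23.6 FPKM in Mitoxantrone replicates 1, 2 and 3 and at 29.6, 29.03 and 30.1 FPKM in DMSO. The highest Mitoxantrone library was below the lowest DMSO library, and the difference was log2 -0.33 (SE 0.07), limma adjusted p = 0.397. In replicates 2 and 3 alone, with 2 libraries a group, the BRCA1 difference was -0.29, with an adjusted p of 0.00976 by limma. BARD1, the obligate partner of BRCA1 (ENSG00000138376, chr2:214725646-214809711), measured 14.6, 15.6 and 16.2 FPKM in Mitoxantrone and 20.4, 19.4 and 18.9 FPKM in DMSO. These groups did not overlap either, and the difference of BARD1 was log2 -0.32 (SE 0.08), limma adjusted p = 0.474. RAD51AP1, an accessory factor of strand exchange, had the largest difference of all members at -0.38, and BRIP1, the BRCA1-bound helicase, BRCA2, a mediator of recombination, and XRCC2, which acts in the same route, were also wholly below DMSO, at -0.33, -0.33 and -0.26. PALB2, RAD54L, RAD51C and XRCC3 lay between -0.19 and -0.06 and overlapped DMSO. RAD52, a mediator of annealing, was the 1 gene of this role with a higher mean in Mitoxantrone, at 0.09 with a 95% interval from -0.32 to 0.50, and it turned to -0.07 without Mitoxantrone replicate 1.

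In the Fanconi pathway the median difference was -0.19, with 10 of 12 genes lower, 3 wholly below DMSO and 3 at an unadjusted p under 0.05, or 7 with the replicate block. FANCI, which with FANCD2 forms the clamp on damaged DNA (ENSG00000140525, chr15:89243949-89317261), read 33.4, 38.2 and 36.1 FPKM in Mitoxantrone and 44.6, 42.8 and 44.01 FPKM in DMSO. Mitoxantrone was below DMSO in every library, replicate 1 the most, and the FANCI difference was log2 -0.28 (SE 0.06), limma adjusted p = 0.397. USP1 (ENSG00000162607, chr1:62436297-62451804) gave 38.9, 42.5 and 45.5 FPKM and 51.8, 53.6 and 53.3 FPKM in the same groups. Its groups were likewise apart, by log2 -0.32 (SE 0.08), limma adjusted p = 0.474. FANCD2 was the third gene wholly below DMSO, at -0.23. The E2 enzyme UBE2T and the core and accessory genes FANCA, FANCB, FANCC, FANCG, FANCL and FANCM had differences from -0.28 to -0.09, but each overlapped DMSO. FANCE and FANCF, both of the core complex, had slightly higher means, at 0.06 and 0.07, and both overlapped DMSO. FANCE turned to -0.12 without DMSO replicate 1, and FANCF to -0.0056 under quantile normalization.

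The damage signaling and checkpoint genes had a median difference of -0.26, with all 5 tested genes lower. Wholly below DMSO were 2 (5.9% of all genes tested), and 3 were lower at an unadjusted p under 0.05 (2.94%). TOPBP1 (ENSG00000163781, chr3:133598175-133662380), which switches on ATR, had the smallest p of all members and stood at 36.8, 35.7 and 35.8 FPKM in Mitoxantrone and 47.6, 42.5 and 43.5 FPKM in DMSO. The Mitoxantrone libraries were close together and below every DMSO library, by log2 -0.29 (SE 0.06), limma adjusted p = 0.397. CHEK1, the kinase that ATR activates (ENSG00000149554, chr11:125625136-125676255), measured 21.7, 22.8 and 22.8 FPKM in Mitoxantrone and 28.2, 28.1 and 27.95 FPKM in DMSO. The CHEK1 groups were apart by more than the spread within either one, with a difference of log2 -0.31 (SE 0.08), limma adjusted p = 0.474. ATR itself differed by -0.26 and overlapped DMSO. The other arm of the pathway differed less, with ATM at -0.03 (95% interval -0.47 to 0.41) and its target CHEK2 at -0.08 (95% interval -0.275 to 0.12). ATM was above DMSO in replicates 2 and 3 alone, by 0.07. Whether the ATR arm differed from the ATM arm was not tested.

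For end resection and its helicases the median difference was -0.21, with all 6 genes lower at each replicate number, 3 wholly below DMSO and 2 at an unadjusted p under 0.05, or 4 with the replicate block. BLM, the helicase lost in Bloom syndrome (ENSG00000197299, chr15:90717327-90816165), read 20.9, 21.5 and 20.4 FPKM in Mitoxantrone and 28.8, 23.9 and 25.4 FPKM in DMSO. The groups did not overlap, and the widest gap was in replicate 1, where DMSO was high. The BLM difference was log2 -0.30 (SE 0.08), limma adjusted p = 0.474. RBBP8, which encodes the resection factor CtIP (ENSG00000101773, chr18:22798261-23026488), gave 15.99, 18.1 and 19.1 FPKM and 21.1, 21.4 and 23.2 FPKM in these groups. Its replicate 1 library was the lowest in both groups, the groups were apart, and the difference was log2 -0.29 (SE 0.10), limma adjusted p = 0.507. NBN was wholly below DMSO at -0.15, while the exonuclease EXO1, the helicase WRN and RAD50 overlapped DMSO at -0.23, -0.19 and -0.08.

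Among the end joining genes the median difference was -0.19, with 5 of 6 lower. Wholly below DMSO were 4 (5.9% of all genes tested), and 3 were lower at an unadjusted p under 0.05 (2.94%). PRKDC (ENSG00000253729, chr8:47773108-47960183), the catalytic subunit of the DNA-dependent protein kinase, stood at 181, 179 and 184 FPKM in Mitoxantrone and 211, 225 and 221 FPKM in DMSO. The 3 Mitoxantrone libraries agreed closely and were below all DMSO libraries, by log2 -0.27 (SE 0.07), limma adjusted p = 0.477. XRCC5, the larger Ku subunit (ENSG00000079246, chr2:216107464-216206303), measured 145, 138 and 146 FPKM in Mitoxantrone and 169, 164 and 161 FPKM in DMSO. Its groups were apart by log2 -0.20 (SE 0.06), limma adjusted p = 0.492, a smaller step than that of PRKDC. XRCC6 and XRCC4 were also wholly below DMSO, at -0.19 and -0.18. LIG4, at -0.01 with a 95% interval from -0.47 to 0.45, and TP53BP1, which shields ends from resection, at 0.03 with an interval from -0.16 to 0.21, were both near 0. LIG4 turned to 0.09 in replicates 2 and 3 alone and to 0.015 when scaled to protein-coding genes, and TP53BP1 turned to -0.05 under quantile normalization.

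Both genes of other repair routes were wholly below DMSO, as were 5.9% of all genes tested. MSH6, a mismatch sensor (ENSG00000116062, chr2:47695530-47810101), read 20.4, 21.5 and 22.3 FPKM in Mitoxantrone and 24.7, 27.8 and 26.5 FPKM in DMSO, a difference of log2 -0.29 (SE 0.09), limma adjusted p = 0.492. PARP1, the first responder at nicks in DNA (ENSG00000143799, chr1:226360691-226408079), gave 36.3, 33.99 and 35.5 FPKM and 37.5, 41.99 and 40.6 FPKM, a difference of log2 -0.18 (SE 0.09), limma adjusted p = 0.677. Replicate 1 was the narrowest gap for PARP1, with 36.3 FPKM against 37.5 FPKM. The 6 roles thus had medians between -0.26 and -0.19, and no difference between roles was tested.

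**Figure D2:**
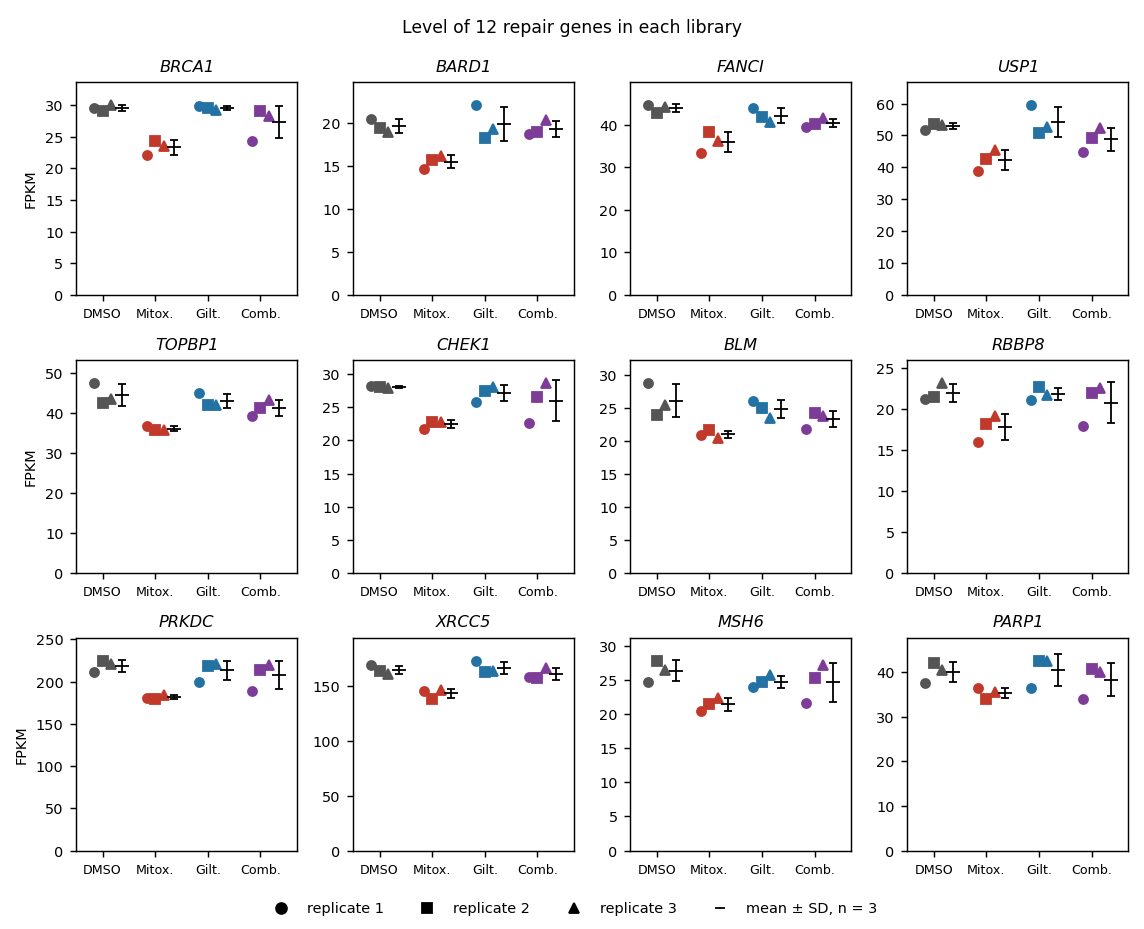
FPKM of 12 repair genes in each of the 12 libraries, on axes that start at 0. Colours are the 4 groups, symbols the replicate numbers, and black marks the mean ± SD of 3 libraries. For all 12 genes the 3 Mitoxantrone libraries lie below the 3 DMSO libraries, as for BRCA1 with 22.1 to 24.3 FPKM against 29.03 to 30.1 FPKM. That choice of genes favours such a gap. Of all 42 tested members 20 showed it, beside 5.9% of all genes tested.

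Genes of cell division had the same direction. All 24 genes of a proliferation list (replication and mitosis genes) had a lower mean in Mitoxantrone than in DMSO, with a median difference of -0.21. Wholly below DMSO were 11 of the 24, beside 5.9% of all genes tested. Their summed level was 1562 to 1706 FPKM in Mitoxantrone and 1862 to 2002 FPKM in DMSO. At an unadjusted p under 0.05 there were 6 of the 24, all lower, beside 2.94% of all genes that were lower. With the replicate block that count was 16, beside 6.46% of all genes. In replicates 2 and 3 alone 13 of the 24 passed after adjustment, all lower, beside 3.32% of all genes. The part of cell division in the lower levels of the repair genes was not tested. A wider list of 56 other break repair genes, of which 54 were tested, had a median difference of -0.12, with 38 lower. At an unadjusted p under 0.05, 10 were lower (2.94% of all genes) and 0 higher, and 15 were wholly below DMSO (5.9%). With the block 19 of the 54 were lower (6.46% of all genes) and 1 higher (1755 of the 18574 genes tested) by the unadjusted measure. In replicates 2 and 3 alone 7 passed after adjustment, all lower, beside 3.32% of all genes. RAD18, a ubiquitin ligase of damage tolerance, and RIF1, a partner of TP53BP1, differed by -0.27 and -0.26, with limma adjusted p of 0.492 and 0.494. H2AX, the histone that is phosphorylated around breaks, stood at 94.3, 39.2 and 35.2 FPKM in Mitoxantrone and 111, 127 and 132 FPKM in DMSO. Its replicate 1 library was far above the other two in Mitoxantrone, and the limma adjusted p of its difference, -1.26, was 0.507. H2AX stood at 141, 47.3 and 58.7 FPKM in Gilteritinib, where replicate 1 was again far above the others, and at 94.9, 104 and 124 FPKM in the Combination, where it was not.

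Upstream sequences of 4 members are shown to set letters known from cell cycle promoters beside these values. They are the members with the smallest p in Mitoxantrone against DMSO that have an entry (TOPBP1, BRCA1 and BARD1) and, as a contrast, ATM, which had the largest p among members with a mean of at least 10 FPKM. Each run is the 250 bases before the start site, from RefSeq on GRCh38.p14, read 5′ to 3′ on the gene's own strand. Capitals mark an E2F core, a CHR element or a CCAAT box on either strand. The intervals are chr3:133661942-133662191 (minus strand), chr17:43125365-43125614 (minus strand), chr2:214809684-214809933 (minus strand) and chr11:108222817-108223066 (plus strand).
TOPBP1: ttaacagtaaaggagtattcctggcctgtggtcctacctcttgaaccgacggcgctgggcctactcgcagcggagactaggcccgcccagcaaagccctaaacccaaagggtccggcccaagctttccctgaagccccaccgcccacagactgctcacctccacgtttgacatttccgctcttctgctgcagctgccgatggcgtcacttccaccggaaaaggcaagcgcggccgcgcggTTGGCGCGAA
BRCA1: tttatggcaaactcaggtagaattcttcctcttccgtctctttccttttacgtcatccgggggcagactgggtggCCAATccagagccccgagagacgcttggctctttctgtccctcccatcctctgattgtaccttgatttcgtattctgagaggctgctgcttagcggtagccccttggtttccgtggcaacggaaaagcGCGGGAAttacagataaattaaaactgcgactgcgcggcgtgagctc
BARD1: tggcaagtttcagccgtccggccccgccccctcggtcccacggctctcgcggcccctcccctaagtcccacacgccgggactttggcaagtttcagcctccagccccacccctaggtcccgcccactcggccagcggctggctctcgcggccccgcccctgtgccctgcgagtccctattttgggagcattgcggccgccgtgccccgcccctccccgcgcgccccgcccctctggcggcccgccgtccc
ATM: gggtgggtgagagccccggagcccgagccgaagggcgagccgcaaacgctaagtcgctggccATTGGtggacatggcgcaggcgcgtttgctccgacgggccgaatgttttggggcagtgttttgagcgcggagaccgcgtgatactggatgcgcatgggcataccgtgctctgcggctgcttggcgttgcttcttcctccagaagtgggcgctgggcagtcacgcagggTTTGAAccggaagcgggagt

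The E2F core was searched as TTCCCGC or TTCGCGC or TTGGCGC or TTGCCGC, the CHR element as TTTGAA and the CCAAT box as CCAAT, on both strands. In TOPBP1 the capitals hold 2 overlapping E2F cores that begin 10 and 7 bases before the start site. BRCA1 has 1 E2F core, 47 bases before the start, and a CCAAT box 175 bases before it. BARD1 held none of these letters in this window, and ATM held a CHR element 20 bases and a CCAAT box 188 bases before the start. Of 38 members with an entry, 12 (31.6%) held an E2F core, beside 11.0% of 27305 promoters, 1 per gene. A CCAAT box was in 20 of the 38 (52.6%), beside 33.2% of all promoters, and a CHR element in 5 (13.2%), beside 13.5%. By role, an E2F core was in 4 of 11 promoters of homologous recombination, 4 of 11 of the Fanconi pathway, 2 of 6 of damage signaling, 1 of 4 of end resection, 0 of 4 of end joining and 1 of 2 of the other repair genes. Among the members wholly below DMSO in Mitoxantrone 5 of 16 promoters held an E2F core, and among the other members 7 of 22 (31.2% and 31.8%). The 22 include MDC1, which was not tested and whose promoter held an E2F core. FANCI, NBN, PRKDC, WRN and XRCC5 had no entry.

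Gilteritinib alone left the repair genes close to DMSO. The median difference of the 42 members was -0.02, beside -0.03 over all genes tested, with 28 members lower and 14 higher. None passed the limma test (0% of all genes did), and at an unadjusted p under 0.05 there were 0 members beside 1.86% of all genes. RAD50 was wholly below DMSO, 1 of 42 members where 4.4% of all genes tested were. XRCC6 was wholly above DMSO, 1 of 42 members where 404 of the 18574 genes tested were. RAD50 had the smallest p, with 3.42, 3.40 and 3.16 FPKM in Gilteritinib and 3.81, 3.69 and 3.52 FPKM in DMSO, a difference of log2 -0.11 (SE 0.09), limma adjusted p = 0.9999. XRCC4, which holds LIG4 at the ends, followed with 22.6, 17.5 and 20.1 FPKM against 20.1, 17.3 and 18.01 FPKM in DMSO. For XRCC4 the groups overlapped and the difference was log2 0.11 (SE 0.10), limma adjusted p = 0.9999. MSH6 came next at 23.9, 24.7 and 25.7 FPKM, which overlapped DMSO, with a difference of log2 -0.09 (SE 0.09) and a limma adjusted p of 0.9999. The 95% intervals of all 42 members lay between -0.56 and 0.54, which is the precision that 3 libraries a group gave.

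With both drugs most repair genes were again slightly below DMSO. The median difference of the 42 members from DMSO was -0.07, beside -0.01 over all genes, with 35 lower and 7 higher. No member passed the limma test, beside 0.00538% of all genes tested, and 0 members reached an unadjusted p under 0.05, beside 1.67% of all genes. FANCI, FANCD2 and RAD50 were wholly below DMSO, 3 of 42 members beside 3.16% of all genes. The difference was mostly in replicate 1, where the members' median was -0.13, against -0.03 and -0.02 in replicates 2 and 3. In the Combination the replicate 1 library was the lowest of the 3 for 24 of the 42 members, and in DMSO it was the highest of the 3 for 25.

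BLM had the smallest p in this comparison, at 21.8, 24.1 and 23.8 FPKM in the Combination beside the DMSO values above. Its groups overlapped, since DMSO replicate 2 was below the highest Combination library, and the difference was log2 -0.15 (SE 0.08), limma adjusted p = 1. FANCI measured 39.5, 40.1 and 41.5 FPKM, below every DMSO library, a difference of log2 -0.12 (SE 0.06), limma adjusted p = 1. TOPBP1 measured 39.3, 41.2 and 43.2 FPKM, of which only replicate 3 reached the DMSO range, a difference of log2 -0.11 (SE 0.06), limma adjusted p = 1.

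Set against Mitoxantrone, the Combination had higher mean levels of most repair genes. The median difference was 0.14, beside -0.04 over all genes, with 38 members higher and 4 lower. The Mitoxantrone libraries are the same as those set against DMSO, so this direction is no separate evidence. None of the 42 passed the limma test (0% of all genes did). At an unadjusted p under 0.05, 9 members were higher and 0 lower, beside 1.41% of all genes that were higher. The 3 Combination libraries lay wholly above Mitoxantrone for 12 members, beside 3.22% of all genes. TP53BP1 lay wholly below, 1 of 42 members beside 1135 of the 18574 genes tested. With the replicate block the unadjusted count of higher members was 17, beside 3.6% of all genes. In replicates 2 and 3 alone, 11 members passed, all higher, beside 2.62% of all genes, and 7 with the block, beside 1.66%.

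BARD1 had the smallest p here, with 18.6, 18.9 and 20.3 FPKM in the Combination against 14.6 to 16.2 FPKM in Mitoxantrone. The groups were apart in every library, by log2 0.30 (SE 0.08), limma adjusted p = 0.821. RAD51AP1 read 22.04, 20.1 and 24.1 FPKM in the Combination and 17.5, 16.8 and 17.3 FPKM in Mitoxantrone. It too was apart, by log2 0.34 (SE 0.11), limma adjusted p = 0.888. BRCA1 gave 24.4, 29.1 and 28.3 FPKM in the Combination, where replicate 1 was close to the highest Mitoxantrone library of 24.3 FPKM, and differed by log2 0.22 (SE 0.07), limma adjusted p = 0.888. By role the medians were 0.14 for homologous recombination, 0.10 for the Fanconi pathway, 0.16 for damage signaling, 0.14 for end resection, 0.15 for end joining and 0.15 for the other repair genes. This comparison leaned on single libraries. The 9 members at an unadjusted p under 0.05 became 2 without Combination replicate 3, 5 without Combination replicate 2, 5 without Mitoxantrone replicate 2 and 15 without Combination replicate 1. The proliferation list had a median of 0.18 here, with all 24 genes higher. At an unadjusted p under 0.05 there were 3 (1.41% of all genes), and 10 with the block (3.6%). After adjustment 14 of the 24 passed in replicates 2 and 3 alone, all higher, beside 2.62% of all genes.

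The Combination and Gilteritinib alone differed little in these genes, with Gilteritinib at 20 nM in the Combination and 25 nM alone. The median difference was -0.05, beside 0.02 over all genes, with 33 members lower, and by replicate number it was -0.14, -0.05 and 0.04. None passed the limma test (0% of all genes tested) and 0 reached an unadjusted p under 0.05, beside 1.63% of all genes. BRCA1 and RAD51C were wholly below Gilteritinib, 2 of 42 members beside 2.33% of all genes. UBE2T, the E2 enzyme that ubiquitinates FANCD2 and FANCI, had the smallest p, with 10.4, 17.3 and 14.6 FPKM in the Combination and 16.04, 19.2 and 18.5 FPKM in Gilteritinib. Replicate 1 was the lowest library of UBE2T in both groups, the groups overlapped, and the difference was log2 -0.35 (SE 0.18), limma adjusted p = 0.9999. USP1 measured 44.9, 49.3 and 52.2 FPKM in the Combination and 59.6, 50.8 and 52.5 FPKM in Gilteritinib, a difference of log2 -0.15 (SE 0.08), limma adjusted p = 0.9999. BRCA1 measured 29.8, 29.6 and 29.2 FPKM in Gilteritinib, close to Combination replicates 2 and 3 and well above Combination replicate 1 at 24.4 FPKM, a difference of log2 -0.11 (SE 0.07), limma adjusted p = 0.9999.

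Between the single drugs, most repair genes had a higher mean in Gilteritinib than in Mitoxantrone. The Mitoxantrone libraries are again those set against DMSO, so this direction is no separate evidence. The median difference was 0.21, beside -0.06 over all genes, with 37 members higher and 5 lower. None passed the limma test over all libraries (0% of all genes tested), and 17 members were higher at an unadjusted p under 0.05, beside 2.96% of all genes. In 17 members the Gilteritinib libraries lay wholly above Mitoxantrone, beside 5.25% of all genes. With the replicate block 26 members were higher at an unadjusted p under 0.05, beside 5.45%. With a term for replicate 1 alone, BRCA1 and EXO1 passed, 2 members beside 0.393% of all genes. In replicates 2 and 3 alone 10 members passed, all higher, beside 2.65%, and 9 with the block, beside 1.6%. The proliferation list had a median of 0.31 here, with all 24 genes higher. At an unadjusted p under 0.05 there were 13 (2.96% of all genes), and 23 with the block (5.45%). After adjustment 19 of the 24 passed in replicates 2 and 3 alone, all higher, beside 2.65% of all genes. The part of cell division in this comparison was not tested either.

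BRCA1 was at 29.8, 29.6 and 29.2 FPKM in Gilteritinib and 22.1 to 24.3 FPKM in Mitoxantrone, a difference of log2 0.33 (SE 0.07), limma adjusted p = 0.236. USP1, at 59.6, 50.8 and 52.5 FPKM in Gilteritinib and 38.9 to 45.5 FPKM in Mitoxantrone, differed by log2 0.35 (SE 0.08), limma adjusted p = 0.252. BARD1, at 22.1, 18.2 and 19.3 FPKM in Gilteritinib, differed by log2 0.33 (SE 0.08), limma adjusted p = 0.255. In each of these 3 genes all Gilteritinib libraries were above all Mitoxantrone libraries. EXO1 was at 27.4, 35.3 and 37.6 FPKM in Gilteritinib and 24.5, 27.4 and 28.7 FPKM in Mitoxantrone. Gilteritinib replicate 1 was above Mitoxantrone replicate 1 but within the Mitoxantrone range, and Gilteritinib replicates 2 and 3 were well above that range.

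**Figure D3:**
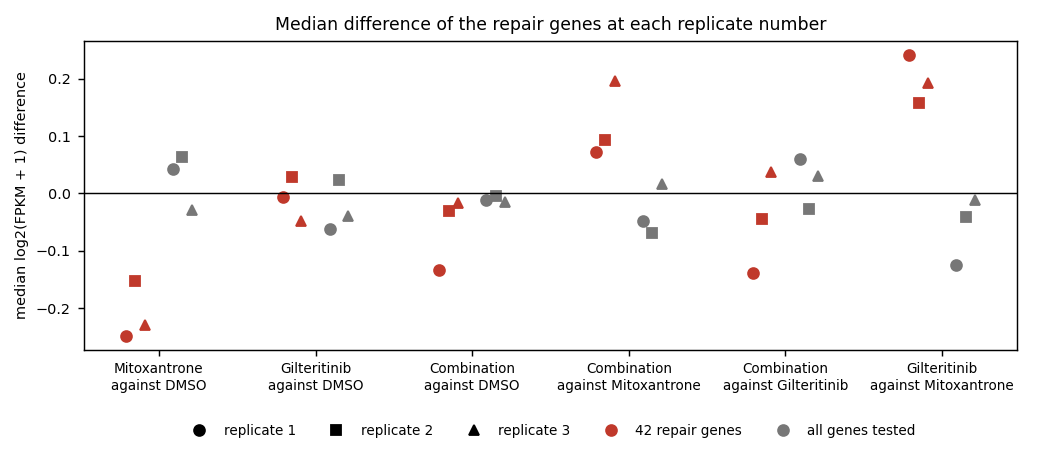
Median difference in log2(FPKM + 1) of the 42 repair genes (red) and of all 18574 genes tested (grey) within each replicate number, for the 6 comparisons between groups. Each symbol sets 1 library against 1 library. In Mitoxantrone against DMSO the members lie at -0.25, -0.15 and -0.23, and in the Combination against DMSO replicate 1, at -0.13, is lower than replicates 2 and 3.

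The interaction asks whether the Combination differs from Gilteritinib by the same step as Mitoxantrone differs from DMSO, with the unequal Gilteritinib doses (20 nM in the Combination, 25 nM alone) left as they are. It was above 0 in 38 of the 42 members, with a median of 0.16 beside -0.01 over all genes. Its Mitoxantrone and DMSO libraries are those already compared above, so this direction is no separate evidence. A value above 0 means that the step from Gilteritinib to the Combination was less downward than that from DMSO to Mitoxantrone. None passed the limma test (0% of all genes did). At an unadjusted p under 0.05, 5 members were above 0, beside 1.43% of all genes, with the replicate block 9, beside 3.56%, and in replicates 2 and 3 alone 2 members passed, beside 1.7%. These 2 were TOPBP1 and PRKDC, and neither passed with the block in those libraries, where 1.22% of all genes did. TOPBP1 had an interaction of log2 0.24 (SE 0.09), limma adjusted p = 0.9997, from Gilteritinib values of 44.96, 41.9 and 41.9 FPKM and the values of the other groups above. BARD1 had log2 0.29 (SE 0.11), limma adjusted p = 0.9997, and FANCI, at 43.9, 41.9 and 40.6 FPKM in Gilteritinib, had log2 0.22 (SE 0.09), limma adjusted p = 0.9997. The count of 5 became 0 without Gilteritinib replicate 2, Gilteritinib replicate 3 or Combination replicate 3, 2 without Mitoxantrone replicate 1, Mitoxantrone replicate 2, DMSO replicate 1 or DMSO replicate 3, and 8 without Combination replicate 1.

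Replicate number also separated some of these genes. Across the 4 groups, 17 of the 42 members differed between replicate 1 and replicates 2 and 3 by limma (Benjamini-Hochberg adjusted p under 0.05), a share close to the 39.6% of all genes. Higher in replicate 1 were 10 members, namely FANCM, ATM, WRN, LIG4, FANCL, BRIP1, FANCB, BRCA2, ATR and RAD52, and lower were EXO1, UBE2T, FANCE, RBBP8, MSH6, PRKDC and PARP1. FANCM, the translocase of the Fanconi core, lay between 9.61 and 13.03 FPKM in the 4 libraries of replicate 1 and between 6.85 and 8.34 FPKM in the other 8, a difference of log2 0.53 (SE 0.06), limma adjusted p = 0.000238. ATM lay between 29.8 and 36.7 FPKM and 23.5 and 27.7 FPKM, a difference of log2 0.44 (SE 0.06), limma adjusted p = 0.000767. EXO1 went the other way, between 24.5 and 27.4 FPKM in replicate 1 and 27.4 and 37.6 FPKM in the others, a difference of log2 -0.34 (SE 0.04), limma adjusted p = 0.000453. In these 3 genes the replicates were apart whatever the drug.

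WRN (16.1 to 20.99 against 13.9 to 15.6 FPKM) and LIG4 (5.96 to 7.28 against 4.30 to 5.42 FPKM) were also wholly higher in replicate 1, and FANCE (6.86 to 7.40 against 7.69 to 11.3 FPKM) wholly lower. The replicates overlapped in the other called genes. FANCL ranged over 25.000 to 34.6 FPKM in replicate 1 and 21.4 to 26.7 FPKM in the others, BRIP1 over 9.76 to 14.9 and 8.13 to 10.97 FPKM, and FANCB over 8.97 to 12.5 and 7.47 to 9.72 FPKM. BRCA2 ranged over 13.97 to 26.1 and 13.6 to 16.8 FPKM, ATR over 24.1 to 31.2 and 19.6 to 24.6 FPKM, and RAD52 over 8.004 to 9.88 and 5.73 to 8.03 FPKM. Among the genes lower in replicate 1, UBE2T ranged over 10.4 to 16.04 and 14.6 to 19.2 FPKM, RBBP8 over 15.99 to 21.1 and 18.1 to 23.2 FPKM, and MSH6 over 20.4 to 24.7 and 21.5 to 27.8 FPKM. PRKDC ranged over 181 to 211 and 179 to 225 FPKM, and PARP1 over 34.004 to 37.5 and 33.99 to 42.6 FPKM. The proliferation list had 16 of 24 genes lower and 1 higher in replicate 1 by the same test, with a median of -0.21. Of the 18574 genes tested, 2364 were lower and 4991 higher by it.

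**Figure D4:**
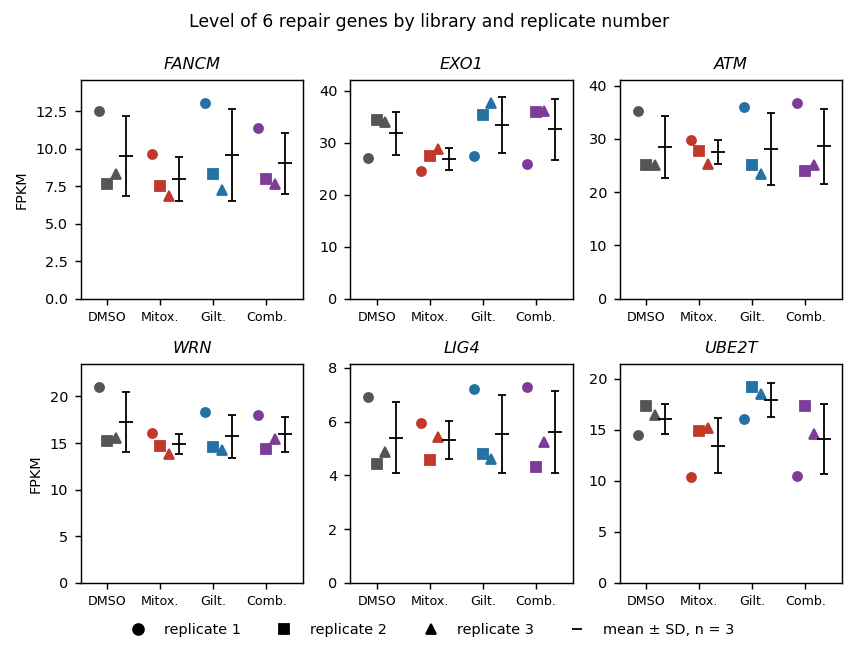
FPKM of the 6 repair genes with the smallest p between replicate 1 (circles) and replicates 2 and 3 (squares and triangles), in each group, on axes that start at 0. Black marks are the mean ± SD of 3 libraries. FANCM, ATM, WRN and LIG4 lie higher in replicate 1 in all 4 groups, with FANCM at 9.61 to 13.0 FPKM against 6.85 to 8.34 FPKM, and EXO1 and UBE2T lie lower.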

How the data were processed

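RNA of MV4-11 cells was sequenced in 12 libraries, 3 for each of 4 treatments. Per the labels, RNA was extracted with a miRNeasy kit, amplified by the Geo-seq method and built into libraries with a TruePrep kit. The authors deposited FPKM per gene in 1 table, and no table column was left out. The submitters' processing notes name Bowtie 0.12.9, Cufflinks 2.1.1, HTSeq and DESeq2, and the mouse build mm10, although the table's identifiers are human. Which of these tools made the FPKM is not given in the sources used here. GENCODE release 29 (GRCh38), which gave positions and exon lengths, holds 40169 of the 43876 identifiers, and symbols were at hand for 41461.

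The FPKM were taken as log2(FPKM + 1), which understates changes of low genes, for genes with at least 1 FPKM in at least 3 of the 12 libraries. Tests used limma 3.58.1 in R 4.3.3 over all 12 libraries, with a mean per group, a mean-variance trend and two-sided p-values adjusted by Benjamini-Hochberg over 18574 genes, called under 0.05. The script was tested on simulated data. Depth was recovered by taking low values as whole fragments with the release 29 exon lengths, and 71.6% to 72.5% of values of 5 to 50 fragments came out whole within 0.1, so fragment numbers are approximate. Amplified fragments carry no molecular identifiers, so depth covers counting error only.

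The tests above are unpaired. Libraries with the same replicate number deviated together from their group means, so blocking on that number was tried as an alternative. Over genes the deviations correlated by 0.165 to 0.657 in the 18 pairs that share a number and by -0.562 to 0.434 in the 36 other pairs.

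The members, the roles, the lists and the tests were chosen with earlier results of these data known. Genes given with their values were the 2 members of each role with the smallest p in Mitoxantrone against DMSO, the 3 members with the smallest p in each other comparison, and every member past the threshold. H2AX, RAD18 and RIF1 are the 3 other break repair genes with the smallest p. Single values of some genes in the marker and wider repair lists are not reported here. For promoters, the RefSeq entry with most release 29 transcript starts within 100 bases was used.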

Additional observations from a re-analysis of the deposited data

How the results depend on the processing

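The count of members past the adjusted threshold was 0 in all 7 comparisons over all libraries. It was also 0 with each library left out in turn (lowest 0, highest 0), with a pseudocount of 0.1, with no filter, with a mean of at least 5 FPKM, under 3 other scalings, without the trend and with the replicate block over all libraries. With only the 6 libraries compared it was 0 in the 6 comparisons between groups, and the interaction was not run that way. It moved with the handling of replicate 1, and the cause was not tested. With replicates 2 and 3 only it was 14 in Mitoxantrone against DMSO, 11 in the Combination against Mitoxantrone, 10 in Gilteritinib against Mitoxantrone and 2 in the interaction. With a replicate block in those libraries, an alternative chosen after seeing the data, it was 9, 7, 9 and 0. With a term for replicate 1 it was 2 in Gilteritinib against Mitoxantrone. The paired analysis, the replicate block over all libraries, changed no call, but raised the members at an unadjusted p under 0.05 from 16 to 26, from 9 to 18, from 17 to 27 and from 5 to 9 in these 4 comparisons.

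The median difference of the members kept its sign in all alternatives except in Gilteritinib against DMSO, where it ranged from -0.0621 to 0.0211, and from -0.0621 to 0.0098 with single libraries left out. In Mitoxantrone against DMSO it ranged from -0.23 to -0.17, and in Gilteritinib against Mitoxantrone it was 0.27 under median-ratio scaling. Of the members chosen by the rule for named genes, none changed direction in the comparison it was chosen for. In Mitoxantrone against DMSO, 6 of the 42 members turned under at least 1 alternative, namely ATM, LIG4, FANCE, FANCF, RAD52 and TP53BP1, with differences between -0.03 and 0.09. The count was 27 in Gilteritinib against DMSO, 25 in the Combination against DMSO, 29 in the Combination against Gilteritinib, 12 in each other comparison between groups and 11 in the interaction. Every tested member had at least 304 fragments in each library. MDC1 was too low to test.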
